A study of Mus musculus with 12 samples.

Results

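Immediate early response genes were analysed in 6 RNA sequencing libraries of mouse embryonic stem cells. They were taken by symbol from the deposited gene counts as Fos, Fosb, Jun, Junb, Egr1, Egr2, Ier2, Ier3 and Btg2, and all 9 were found among 52535 gene entries, of which 26926 had any count. The cells were E14, an established mouse embryonic stem cell line. They were grown in medium with fetal bovine serum, LIF and 2i, a pair of inhibitors of the kinases MEK and GSK3. There were 3 groups of 2 libraries, all grown in that medium: Bcat1-KO clone 2, Bcat1-KO clone 1 and WT. Each knockout group was 1 clone, so a genotype effect and the history of a clone cannot be told apart within it. A further 6 samples of a differentiation time course were not analysed here. Bcat1 encodes the cytosolic branched-chain amino acid transaminase, and the title of the study names Ras signalling as the route by which it acts.

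Immediate early genes are transcribed within minutes of a stimulus from factors that are already present in the cell, with no need for new protein. Growth factors act on them largely through Ras and the kinases MEK and ERK, which switch on serum response factor and its ETS partners at CArG boxes, while cyclic AMP and stress signals act through CREB and ATF factors at cyclic AMP response elements (CREs). Fos and Fosb pair with Jun and Junb to form the AP-1 transcription factor, and Egr1 and Egr2 are zinc finger transcription factors. Ier2 encodes a nuclear protein, Ier3 a regulator of cell survival, and Btg2 an antiproliferative protein that binds the CCR4-NOT deadenylase complex and is also a target of p53.

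Gene counts totalled between 11976149 and 13923262 a library, and the 9 genes took 0.0174% to 0.0260% of them. Levels are given as CPM, the usual count rate of a gene in a library, on library sizes scaled by the TMM method. Bcat1 itself stood at 583 and 579 CPM in the clone 2 libraries, 617 and 662 CPM in the clone 1 libraries, and 602 and 614 CPM in the WT libraries, so its RNA level does not check the knockout labels. All 8 stem cell markers were detected, with no single value under 258 CPM, and their sum was 6203 to 6204 CPM in clone 2, 5777 to 5901 CPM in clone 1 and 6390 to 6577 CPM in WT. The sum of 9 fibroblast and feeder markers was 20.7 to 21.0 CPM in clone 2, 32.1 to 33.5 CPM in clone 1 and 23.7 to 23.9 CPM in WT, with Postn, Dcn, Lum and S100a4 at 0. The sum of 12 markers of differentiated lineages was 18.9 to 20.8 CPM in clone 2, 29.8 to 39.04 CPM in clone 1 and 20.8 to 25.3 CPM in WT, with Neurog2 and Acta2 at 0. Both of the lists of other cell types were therefore highest in clone 1. Whether the paired libraries of a group were grown as separate cultures is not stated. A p-value here therefore reflects how far these libraries differ, which may be no more than technical variation.

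Promoter windows were searched for the elements known from the induction of such genes. The windows below run from 250 bases before to 50 bases after the start in RefSeq on GRCm38.p6, written 5′ to 3′ along the strand of the gene, with matches to the searched motifs in capitals. Fos is shown as the gene most studied for its induction, and Egr2 because it was the 1 gene with a CArG box inside its windows. Btg2 and Ier3 are shown because their RNA differed between the clones. Elements more than 250 bases before a start lie outside the windows and were not searched. A window with no match therefore says nothing of elements farther upstream. The Fos window (chr12:85473640-85473939, plus strand) has 2 copies of the CRE core TGACG, at 129 to 125 and at 66 to 62 bases before the start, and the TATA box TATAAA at 33 to 28 bases before it. The Egr2 window (chr10:67537619-67537918, plus strand) is 1 of 5 that RefSeq lists for this gene, and has a CArG box between 2 CRE cores, the second of them on the opposite strand. The Btg2 window (chr1:134079106-134079405, minus strand) has the full palindromic CRE, TGACGTCA, at 166 to 159 bases before the start. The Ier3 window (chr17:35821463-35821762, plus strand) holds no match to any motif searched, and so is in lower case throughout.
Fos: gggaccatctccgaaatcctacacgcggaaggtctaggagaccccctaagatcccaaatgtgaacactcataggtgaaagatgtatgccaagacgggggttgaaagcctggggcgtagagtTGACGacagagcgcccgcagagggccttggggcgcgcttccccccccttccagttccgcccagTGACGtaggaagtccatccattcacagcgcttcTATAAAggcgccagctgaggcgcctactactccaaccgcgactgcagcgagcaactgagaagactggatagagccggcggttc
Egr2: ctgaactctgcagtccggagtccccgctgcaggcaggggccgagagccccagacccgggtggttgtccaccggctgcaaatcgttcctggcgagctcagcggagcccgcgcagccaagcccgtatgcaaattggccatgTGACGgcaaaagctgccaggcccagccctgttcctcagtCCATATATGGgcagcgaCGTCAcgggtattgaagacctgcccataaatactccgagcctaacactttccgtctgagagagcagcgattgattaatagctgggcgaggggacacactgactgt
Btg2: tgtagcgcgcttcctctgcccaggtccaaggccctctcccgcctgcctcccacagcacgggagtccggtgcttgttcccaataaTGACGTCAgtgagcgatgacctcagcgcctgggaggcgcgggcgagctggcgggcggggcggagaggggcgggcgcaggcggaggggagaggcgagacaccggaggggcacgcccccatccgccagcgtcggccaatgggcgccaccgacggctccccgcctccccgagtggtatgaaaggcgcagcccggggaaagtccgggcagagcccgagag
Ier3: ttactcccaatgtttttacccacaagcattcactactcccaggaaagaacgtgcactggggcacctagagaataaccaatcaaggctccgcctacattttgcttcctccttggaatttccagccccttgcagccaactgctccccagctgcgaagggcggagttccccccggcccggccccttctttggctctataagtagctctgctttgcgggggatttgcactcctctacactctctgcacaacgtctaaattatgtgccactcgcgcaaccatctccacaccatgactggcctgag

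Of the 9 genes, 7 had a window (Fos, Fosb, Jun, Junb, Egr2, Ier3 and Btg2). The CRE core TGACG, searched on both strands and contained in the full CRE, was present in 5 of these 7 genes, against 20.8% of all 32851 windows. The counts are of genes with a match in any of their windows, of which Egr2 has 5 and the others 1 each, while the shares are of single windows. The full CRE TGACGTCA was in 1 of 7 against 1.79% of all windows, the CArG box in 1 of 7 against 1.63%, and the TATA box TATAAA in 2 of 7 against 13.6%. The ETS motif CCGGAA was in 1 of 7 (another Egr2 window) against 14.9%, while the AP-1 motif TGANTCA (7.81% of all windows) and the EGR motif GCGTGGGCG (0.612%) matched none of the 7. The Jun window held no match either. In Junb the TATA box lies at 1 to 6 bases after the RefSeq start, and the GENCODE start of Junb lies a further 30 bases downstream of that RefSeq start, so the position of a match depends on which start is used. A match is a run of letters and shows nothing of binding in these cells.

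**Figure D1:**
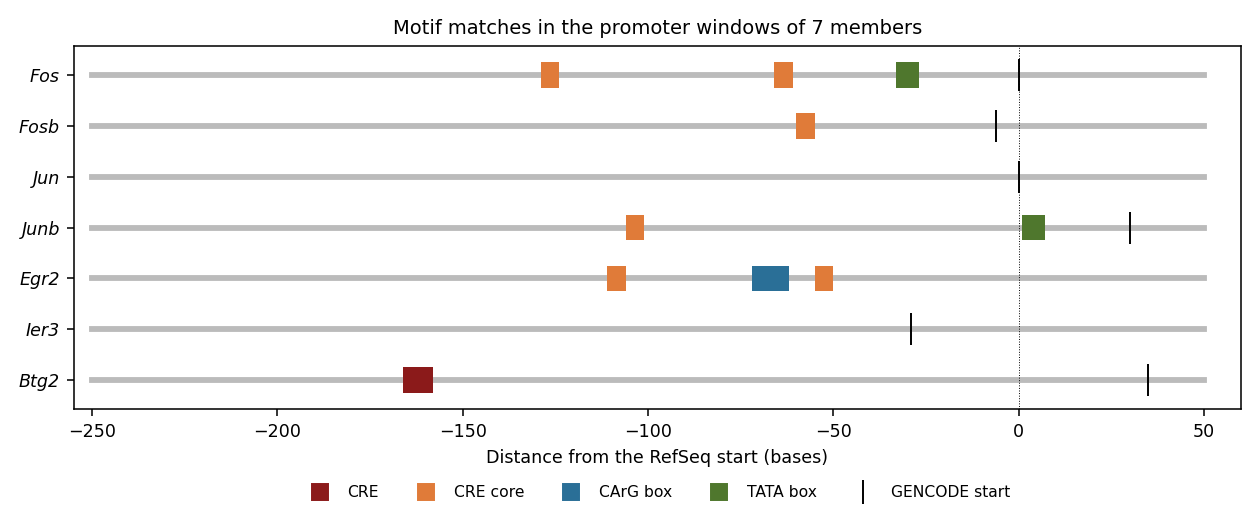
Motif matches in the promoter windows of 7 members; the horizontal axis is the distance in bases from the RefSeq start, boxes are matches by motif on either strand, and the black tick is the GENCODE start where it falls inside the window. CRE cores appear in Fos, Fosb, Junb and Egr2 and the full CRE in Btg2, while Jun and Ier3 have no box.

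The 9 genes spanned more than 3 orders of magnitude in level per length, with Ier2 at the top and the EGR genes at the bottom. Levels were compared per kilobase of merged exon in GENCODE M21. Ier2 had a mean over the 6 libraries of 78.8 CPM per kb, and its lowest library, at 61.1 CPM per kb, was above every library of every other member. Btg2 (mean 18.5 CPM per kb) and Ier3 (mean 16.5 CPM per kb) had overlapping ranges, of 13.6 to 23.4 CPM per kb for Btg2 and 10.7 to 25.5 CPM per kb for Ier3. Junb followed at a mean of 6.83 CPM per kb, with a range of 5.55 to 9.23 CPM per kb that overlapped neither neighbour. Fos (mean 1.19 CPM per kb) and Jun (mean 1.10 CPM per kb) overlapped, and so did Fosb (mean 0.0718 CPM per kb) and Egr1 (mean 0.0683 CPM per kb). Egr2 was lowest, at a mean of 0.0192 CPM per kb, and it overlapped Fosb and Egr1. The order was the same with the longest transcript as the length.

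**Figure D2:**
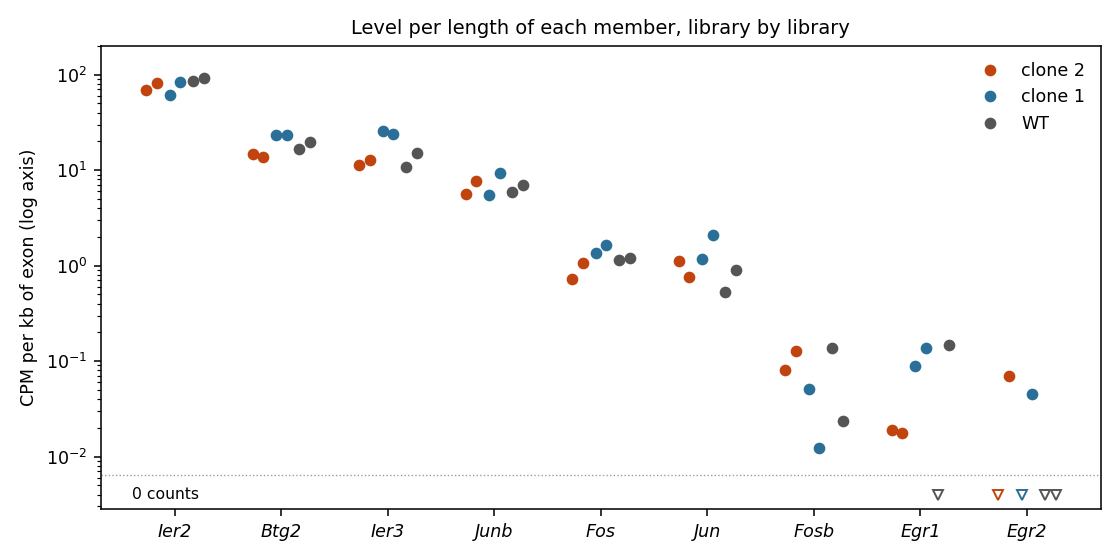
Level of each member per kilobase of exon (vertical log axis, CPM per kb), 1 point for each library, coloured by clone 2, clone 1 and WT; open triangles below the dotted line are libraries with 0 counts. Ier2 is above all others at 61.1 to 91.8 CPM per kb, and Egr2 has 0 counts in 4 of the 6 libraries.

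The members did not move as a block: none passed the test with both clones together against WT, and the calls by clone differed. A filter on low counts kept 6 of the 9 members, and Fosb, Egr1 and Egr2 stayed out of the tests. Taking the 4 libraries labelled knockout as 1 genotype, 0 of the 6 tested members changed, by the edgeR quasi-likelihood test, adjusted by Benjamini-Hochberg over all 14946 tested genes at 0.05. That test called 6.36% of all tested genes, 4.25% higher and 2.11% lower. None of the 6 had an unadjusted p under 0.05, and DESeq2 also called 0 of the 6. The median log2 fold change was 0.08 over the 6 members and 0.00 over all tested genes. Only Ier2 had both clones on 1 side of WT in all libraries, against 35.0% of all tested genes whose libraries did not overlap in this comparison.

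Taken clone by clone, 3 of the 6 tested members rose in clone 1 and 1 fell in clone 2. In clone 1, Ier3, Jun and Btg2 rose and none fell, in a comparison that called 21.9% of all tested genes, 12.4% higher and 9.53% lower. In clone 2, Btg2 fell and none rose, where 17.9% of all tested genes were called, 10.1% higher and 7.81% lower. Between the clones, Ier3 and Btg2 were lower in clone 2 than in clone 1 and none was higher, where 14.3% were called, 6.62% higher and 7.71% lower. The median log2 fold change over the 6 members was -0.17 for clone 2, 0.36 for clone 1 and -0.73 for clone 2 over clone 1, beside 0.00 over all tested genes in each of these comparisons. The libraries did not overlap for 3 of the 6 members between clone 2 and WT (61.3% of all tested genes), for 5 of the 6 between clone 1 and WT (59.3%) and for 4 of the 6 between the clones (54.6%). Both clones were compared with the same WT libraries, so their fold changes share the error of WT. In these bulk samples fewer cells of a type and less RNA per cell cannot be told apart.

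**Figure D3:**
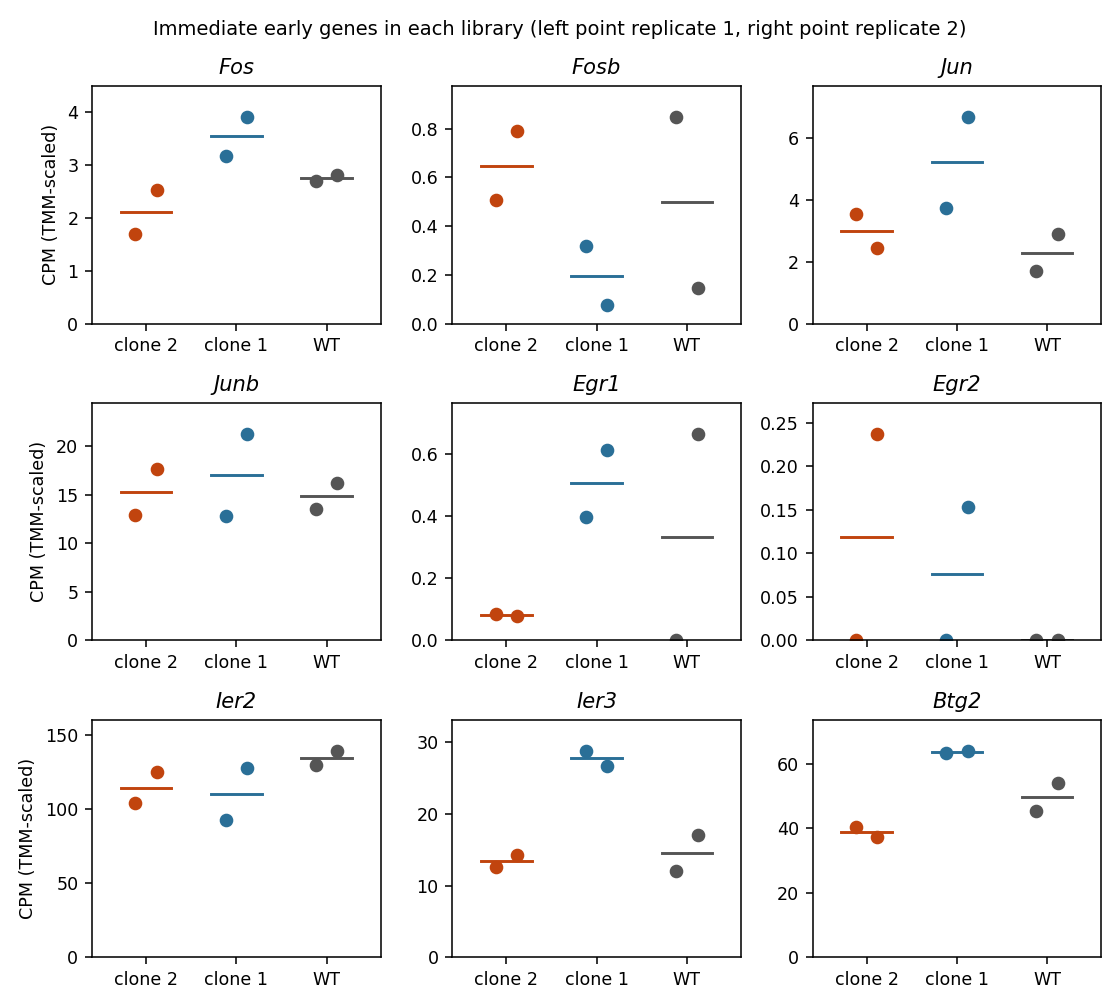
CPM of each of the 9 members (vertical axis, TMM-scaled, from 0) in clone 2, clone 1 and WT; points are single libraries, replicate 1 on the left and replicate 2 on the right, and the bar is the mean of 2. Ier3 at 28.9 and 26.8 CPM and Btg2 at 63.5 and 64.1 CPM in clone 1 stand above all other libraries.

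**Figure D4:**
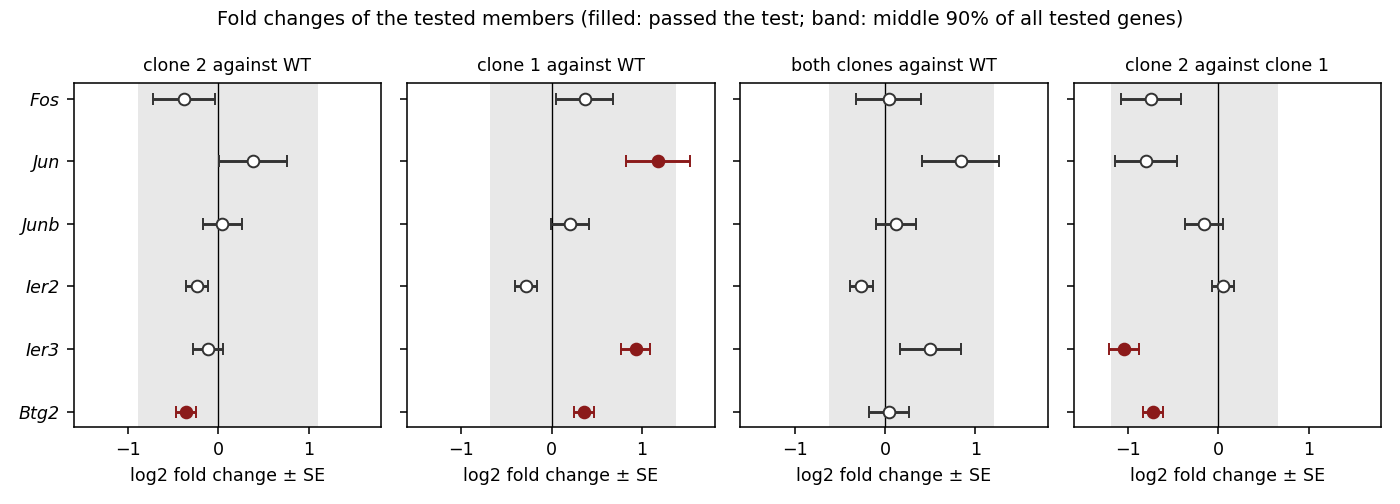
Log2 fold change of the 6 tested members with its standard error (horizontal axis) for clone 2 against WT, clone 1 against WT, both clones against WT and clone 2 against clone 1; filled points passed the test and the grey band holds the middle 90% of all tested genes. Filled points are Btg2 in clone 2, Jun, Ier3 and Btg2 in clone 1, none with both clones together, and Ier3 and Btg2 between the clones.

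Among the members, Ier3 had the largest difference from WT that held in all 13 alternative settings. Ier3 (chromosome 17, 35821684 to 35822923, plus strand, GRCm38, 2 exons) is induced by growth factors and stress and acts on cell survival. It had 12.7 and 14.3 CPM in clone 2, 28.9 and 26.8 CPM in clone 1, and 12.1 and 17.1 CPM in WT. Both clone 1 libraries were above the other 4, and clone 2 lay within the range of WT. In clone 1 Ier3 rose 1.90-fold over WT, a log2 fold change of 0.93 ± 0.16 (SE, n = 2 libraries each) with an edgeR adjusted p of 4.86e-04. In clone 2 its log2 fold change was -0.11 ± 0.17, with an edgeR adjusted p of 0.703. Clone 2 was below clone 1 by a log2 fold change of -1.04 ± 0.16, with an edgeR adjusted p of 3.42e-04. The clone 1 call and the call between clones both held in all 13 alternative settings, with adjusted p of at most 0.0216 for clone 1 and at most 0.00812 between clones.

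Genes near Ier3 moved in both directions. Of 67 tested genes within 1 Mb of it, 6 were called higher and 13 lower in clone 1, with a median log2 fold change of -0.02. Over all tested genes, 12.4% were called higher and 9.53% lower in clone 1, and 10.1% and 7.81% in clone 2. Falls thus outnumbered rises near Ier3 in clone 1, unlike over all tested genes. The same shares stand beside the neighbours of Jun and Btg2 below. The nearest neighbours of Ier3 that rose in clone 1 were Nrm at 39.6 kb (log2 fold change 0.47, edgeR adjusted p = 0.00977) and Ppp1r18 at 43.9 kb (log2 fold change 0.48, edgeR adjusted p = 0.0122). The nearest that fell there were Dhx16 at 58.1 kb (log2 fold change -0.26, edgeR adjusted p = 0.0263) and Gm16279 at 75.3 kb (log2 fold change -1.28, edgeR adjusted p = 0.0473). Nrm also rose in clone 2 (log2 fold change 0.45, edgeR adjusted p = 0.0166), where Ier3 did not. In clone 2, 6 of these 67 were called higher and 2 lower, with a median of 0.01. Jun had 10 tested neighbours within 1 Mb, of which 2 were called higher and 0 lower in clone 2, and 3 higher (Tek, Fggy and Hook1, of which Tek is nearest at 313 kb) and 1 lower (Gm12657) in clone 1, with a median log2 fold change of -0.02 in clone 2 and 0.01 in clone 1. Btg2 had 17, of which 1 was called higher and 3 lower in clone 2, with a median of 0.05, and 2 higher and 3 lower in clone 1, with a median of 0.03.

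Btg2 differed from WT in opposite directions in the clones. Btg2 (chromosome 1, 134075170 to 134079120, minus strand, 2 exons) slows entry into the cell cycle. It had 40.4 and 37.2 CPM in clone 2, 63.5 and 64.1 CPM in clone 1, and 45.4 and 54.1 CPM in WT. The 3 groups did not overlap, with clone 1 highest and clone 2 lowest. The log2 fold change was -0.36 ± 0.11 in clone 2 (edgeR adjusted p = 0.0358) and 0.36 ± 0.11 in clone 1 (edgeR adjusted p = 0.0256). Between the clones it was -0.72 ± 0.11 (clone 2 over clone 1, edgeR adjusted p = 3.48e-04), a call that held in all 13 alternative settings.

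The call of Btg2 in each single clone rested on few libraries. DESeq2 gave an adjusted p of 0.0619 for Btg2 in clone 2 and of 0.0517 in clone 1. Without replicate 2 of WT the log2 fold change in clone 2 was -0.22 (adjusted p = 0.345), and without replicate 1 or 2 of clone 2 the adjusted p was 0.103 or 0.263. Without replicate 1 of WT the log2 fold change in clone 1 was 0.23 (adjusted p = 0.294), and without replicate 1 of clone 2 its adjusted p was 0.0502. Of all 14946 tested genes, 522 (3.49%) had every clone 1 library above WT and every clone 2 library below it, and among the members these were Fos and Btg2. The 30 genes (0.201%) called higher in clone 1 and lower in clone 2 held 1 member, Btg2.

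Ier2, the most abundant member, was lower in all 4 libraries labelled knockout without passing the test. Ier2 (chromosome 8, 84661331 to 84662852, minus strand, 1 exon) had 104 and 125 CPM in clone 2, 92.9 and 128 CPM in clone 1, and 129.9 and 139.7 CPM in WT. The highest knockout library lay just under the lower WT library. The means were 115 ± 14.8 CPM in clone 2, 110.5 ± 24.8 CPM in clone 1 and 135 ± 6.90 CPM in WT (SD, n = 2 each). The log2 fold change was -0.23 ± 0.12 in clone 2 (edgeR adjusted p = 0.213), -0.29 ± 0.12 in clone 1 (edgeR adjusted p = 0.106) and -0.26 ± 0.13 with both clones together (edgeR adjusted p = 0.265). Single settings changed the calls by clone: without replicate 2 of clone 1, Ier2 was called lower in clone 1, with a log2 fold change of -0.54, and also lower in clone 2 (adjusted p = 0.00956). Without replicate 1 of clone 1, the call was lower in clone 2 (adjusted p = 0.0102), and the log2 fold change in clone 1 was -0.08. With no filter on low counts the adjusted p in clone 1 was 0.0171, and with the 4 libraries fitted alone it was 0.0134 in clone 2. Between the clones the log2 fold change of Ier2 was 0.05 ± 0.12 (edgeR adjusted p = 0.831), and without replicate 2 of clone 1 it was 0.31 (adjusted p = 0.00892).

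Among the subunits of AP-1, Jun rose in clone 1, and neither Fos nor Junb changed in any comparison. Jun (chromosome 4, 95049034 to 95052222, minus strand, 1 exon) had 3.55 and 2.45 CPM in clone 2, 3.73 and 6.67 CPM in clone 1, and 1.70 and 2.88 CPM in WT. Clone 1 lay above WT but its libraries were far apart, and clone 2 overlapped WT. In clone 1 Jun rose 2.26-fold, a log2 fold change of 1.178 ± 0.35 with an edgeR adjusted p of 0.0236. In clone 2 the log2 fold change was 0.38 ± 0.38 (edgeR adjusted p = 0.546), and clone 2 over clone 1 it was -0.80 ± 0.34 (edgeR adjusted p = 0.140). The call in clone 1 was lost with DESeq2 (adjusted p = 0.0544), without replicate 1 of WT (adjusted p = 0.222) and without replicate 2 of clone 1, where the log2 fold change was 0.70 (adjusted p = 0.212). Without replicate 1 of clone 1, clone 2 was called lower than clone 1, with a log2 fold change of -1.15 (adjusted p = 0.0107). The exons of Jun share 232 bases, 7.28% of their length, with the antisense gene Junos, which had 5 and 2 counts in clone 2, 2 and 1 in clone 1, and 6 and 7 in WT, and reads there cannot be assigned to a strand without the counting setting.

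Fos stood on opposite sides of WT in the clones, and neither difference passed the test. Fos (chromosome 12, 85473890 to 85477273, plus strand) had 1.69 and 2.53 CPM in clone 2, 3.17 and 3.91 CPM in clone 1, and 2.70 and 2.81 CPM in WT, from 20 to 51 counts a library. The 3 groups did not overlap, in the same order as for Btg2. The log2 fold change was -0.38 ± 0.34 in clone 2 (edgeR adjusted p = 0.501) and 0.36 ± 0.32 in clone 1 (edgeR adjusted p = 0.456). Clone 2 over clone 1 it was -0.74 ± 0.33, with an edgeR adjusted p of 0.160, and it passed in none of the 13 alternative settings.

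Junb, the most abundant AP-1 subunit of the members, overlapped in all groups. Junb (chromosome 8, 84974484 to 84978718, minus strand) had 12.9 and 17.6 CPM in clone 2, 12.8 and 21.2 CPM in clone 1, and 13.5 and 16.2 CPM in WT. In each group its replicates were as far apart as the groups were. The log2 fold change was 0.04 ± 0.21 in clone 2 (edgeR adjusted p = 0.919) and 0.20 ± 0.21 in clone 1 (edgeR adjusted p = 0.546). Without replicate 1 of clone 1, Junb was called higher in clone 1 (log2 fold change 0.51, adjusted p = 0.0188) and lower in clone 2 than in clone 1 (adjusted p = 0.0456). Its exons share 173 bases, 7.52% of their length, with Prdx2 on the opposite strand, which had 2104 to 3404 counts a library and fell in clone 1 (log2 fold change -0.45, edgeR adjusted p = 9.59e-04).

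Fosb, another Fos family subunit, was close to the limit of detection. It had 6 and 10 counts in clone 2, 4 and 1 in clone 1, and 11 and 2 in WT, so that its WT libraries were the highest and the second lowest of the 6 by CPM. Clone 2 was above clone 1, at a pooled ratio of 3.35 with a 95% interval of 1.17 to 11.7 that covers counting error only. Against WT the intervals held 1, at 0.601 to 3.01 in clone 2 and 0.111 to 1.19 in clone 1. With no filter on low counts, the edgeR adjusted p between the clones was 0.356.

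Egr1, the classic read-out of ERK activity, and Egr2 were almost silent in these cells. Egr1 had 1 and 1 counts in clone 2, 5 and 8 in clone 1, and 0 and 9 in WT. The WT libraries were thus as far apart as any, and the WT library with 0 counts allows a level of up to 0.231 CPM. Clone 2 over clone 1 the pooled ratio was 0.161, with a 95% counting interval of 0.0177 to 0.712, and with no filter the edgeR adjusted p was 0.283. Egr2 had 0 and 3 counts in clone 2, 0 and 2 in clone 1, and 0 and 0 in WT, where 0 counts allow up to 0.231 and 0.222 CPM. No difference of Egr2 was detectable at this depth. The NAB corepressors, which bind EGR proteins and limit them, were the only other genes of that list in the tests, and 0 of 2 passed the edgeR test in any of the 3 comparisons with WT. At an unadjusted p under 0.05 there was 1 of 2 in clone 1, Nab1, and 0 of 2 in the other comparisons with WT.

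The summed level of the 9 members was 176 and 200.4 CPM in clone 2, 206 and 252 CPM in clone 1, and 206 and 233 CPM in WT, with Ier2 the largest part of it in each library. The replicates also differed. For Fos, Junb and Ier2, 3 of the 6 tested members, replicate 2 was above replicate 1 in all 3 groups, beside 17.7% of all tested genes. The higher level of Ier3, Jun and Btg2 in clone 1 went together with the highest sums of fibroblast and of differentiated markers, given above. The largest part of the fibroblast sum in each library was Pdgfrb. It had 18.1 and 16.8 CPM in clone 2, 24.2 and 24.5 CPM in clone 1, and 20.6 and 19.2 CPM in WT. Whether fibroblasts or differentiated cells were present, and what part they had in the result, was not tested.

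Among other subunits and partners of AP-1, Fosl2 rose in both clones. Of 12 tested bZIP partners, 2 rose and 1 fell in clone 2, 1 rose and 2 fell in clone 1, and 1 rose with both clones together. The median log2 fold change was -0.03 in clone 2, -0.21 in clone 1 and -0.02 with both clones together, beside 0.00 over all genes. Counts of this list and those that follow stand beside the shares of all tested genes called. These shares were 10.1% higher and 7.81% lower in clone 2, 12.4% and 9.53% in clone 1, and 4.25% and 2.11% with both together. Fosl2, which encodes the Fos family subunit Fra-2, had 29.1 and 26.8 CPM in clone 2, 7.85 and 8.36 CPM in clone 1, and 3.01 and 3.62 CPM in WT. The 3 groups were well apart, and the order of the clones was the reverse of that for Ier3 and Btg2. The log2 fold change of Fosl2 was 3.07 ± 0.18 in clone 2 (edgeR adjusted p = 5.71e-09) and 1.29 ± 0.20 in clone 1 (edgeR adjusted p = 2.16e-04), and both calls held in all alternatives. With both clones together it was 2.44 ± 0.60 (edgeR adjusted p = 0.0450), a call lost without either WT library (adjusted p = 0.346 and 0.279).

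Jdp2, a partner of Jun that represses AP-1 targets, rose in clone 2, at 29.1 and 29.1 CPM against 17.3 and 18.5 CPM in WT. Its log2 fold change was 0.70 ± 0.15 (edgeR adjusted p = 0.00330, and 0.0606 without replicate 1 of WT). Fosl1, which encodes Fra-1, fell in clone 2, with 4 and 3 counts there against 16 and 28 counts in WT. With so few counts in clone 2, Fosl1 passed the filter on low counts through the other groups, which favours a fall over a rise. Its log2 fold change was -2.49 ± 0.63 (edgeR adjusted p = 0.0103), and the adjusted p was 0.147 without replicate 2 of WT and 0.0648 or 0.107 without replicate 1 or 2 of clone 2. In clone 1, Atf4, the effector of the integrated stress response, fell by a log2 fold change of 0.42 ± 0.07 (edgeR adjusted p = 6.10e-04). Mafg, a small Maf protein, had a log2 fold change of -0.26 ± 0.08 in clone 1 (edgeR adjusted p = 0.0373), a call lost in 8 of the 13 settings.

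Among 45 other tested immediate and delayed early genes, falls outnumbered rises in each of the 3 comparisons with WT. In clone 2, 4 rose and 11 fell, in clone 1, 5 rose and 8 fell, and with both clones together 2 rose and 4 fell, while over all genes more were called higher than lower. Their median log2 fold change was -0.03 in clone 2, -0.03 in clone 1 and -0.02 with both clones together. The 2 that rose with both clones together were Arc, given below, and Trib1 (log2 fold change 0.67 ± 0.16, edgeR adjusted p = 0.0420). The call of Trib1 was not followed in the alternatives. The other 39 did not pass there, among them Dusp1, Dusp4, Dusp5 and Dusp6 (log2 fold changes of -0.37, 0.02, -0.77 and -0.08). Myc, the growth regulator that growth factors induce shortly after Fos, had 8.11 and 7.99 CPM in clone 2, 4.92 and 6.83 CPM in clone 1, and 15.9 and 18.02 CPM in WT. All 4 libraries labelled knockout were below WT. Its log2 fold change was -1.08 ± 0.19 in clone 2 (edgeR adjusted p = 6.49e-04), -1.53 ± 0.19 in clone 1 (edgeR adjusted p = 2.71e-05) and -1.28 ± 0.21 with both together (edgeR adjusted p = 0.00885). Both calls by clone held in all alternatives.

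Spry4, a feedback inhibitor of Ras signalling, had 10.4 and 9.41 CPM in clone 2, 12.4 and 11.3 CPM in clone 1, and 20.3 and 18.8 CPM in WT. It fell in clone 2 (log2 fold change -0.98 ± 0.16, edgeR adjusted p = 3.07e-04) and in clone 1 (log2 fold change -0.72 ± 0.15, edgeR adjusted p = 0.00273), under all settings, and with both clones together (log2 fold change -0.85 ± 0.16, edgeR adjusted p = 0.0145). Its relative Spry2 fell with both clones together, by a log2 fold change of 0.40 ± 0.09 (edgeR adjusted p = 0.0327). In clone 2 Spry2 had one of -0.45 ± 0.09 (edgeR adjusted p = 0.00320), lost without replicate 2 of WT (adjusted p = 0.0541) and without replicate 1 of clone 2 (adjusted p = 0.0868). In clone 1 Spry2 had one of -0.35 ± 0.09 (edgeR adjusted p = 0.0142), lost without replicate 1 or 2 of WT (adjusted p = 0.0747 and 0.116) and with no scaling factors (adjusted p = 0.0615). Zfp36l2, which binds AU-rich elements and speeds the decay of short-lived mRNAs, fell with both clones together, by a log2 fold change of 0.56 ± 0.10 (edgeR adjusted p = 0.0140), and in clone 1 by 0.62 ± 0.11 (edgeR adjusted p = 6.96e-04). Without replicate 1 or replicate 2 of WT, each of these calls with both clones together was lost, at adjusted p of 0.101 and 0.138 for Myc, 0.201 and 0.132 for Spry4, 0.235 and 0.277 for Spry2 and 0.133 and 0.206 for Zfp36l2. The call of Spry2 was also lost without replicate 1 or 2 of clone 2 (adjusted p = 0.0687 and 0.0567) and with no scaling factors (adjusted p = 0.0682).

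Sik1 and Arc differed between the clones. Sik1, a salt-inducible kinase under CREB, had 150.0 and 162 CPM in clone 2, 56.8 and 79.4 CPM in clone 1, and 143 and 150.5 CPM in WT. It fell in clone 1 by a log2 fold change of 1.11 ± 0.12 (edgeR adjusted p = 4.78e-06). Arc, a synaptic early gene, had 22.5 and 25.4 CPM in clone 2, 13.8 and 17.5 CPM in clone 1, and 8.49 and 11.1 CPM in WT. It rose in clone 2 by a log2 fold change of 1.29 ± 0.17 (edgeR adjusted p = 5.12e-05). These calls held in all alternatives. Arc also rose in clone 1, by 0.67 ± 0.18 (edgeR adjusted p = 0.0115, and 0.161 without replicate 1 of WT). With both clones together its log2 fold change was 1.01 ± 0.25 (edgeR adjusted p = 0.0472), a call lost without any 1 library other than replicate 1 of clone 1 (adjusted p of 0.0549 to 0.390). Clone 2 over clone 1, Sik1 had a log2 fold change of 1.20 ± 0.12 (edgeR adjusted p = 3.73e-06) and Arc one of 0.61 ± 0.16 (edgeR adjusted p = 0.0177).

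**Figure D5:**
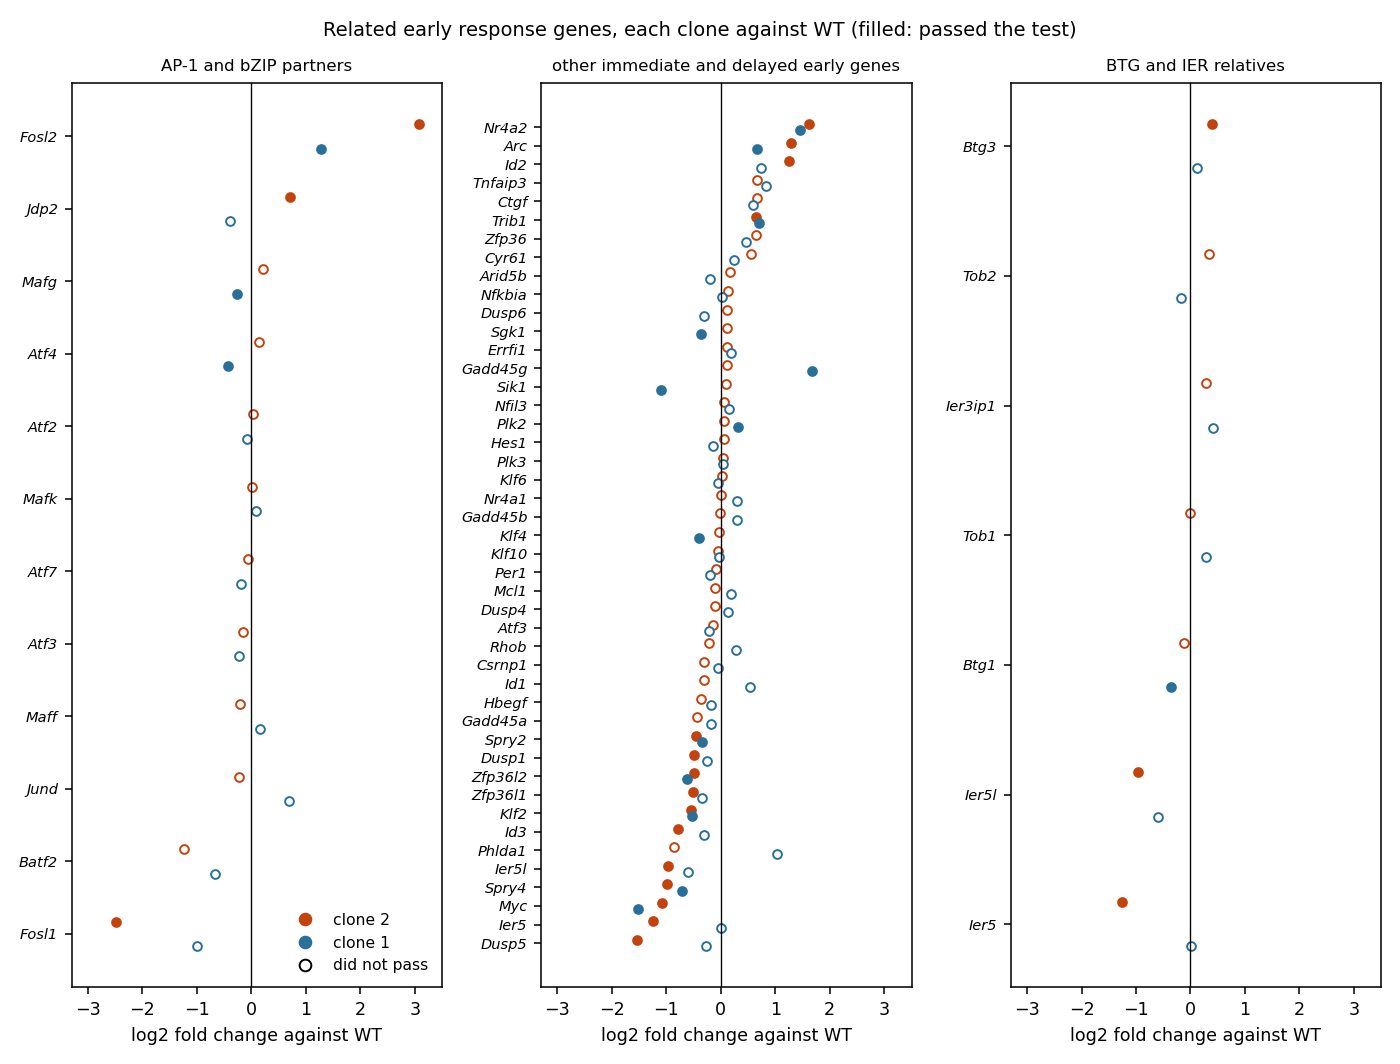
Log2 fold change against WT (horizontal axis) of tested AP-1 and bZIP partners, other immediate and delayed early genes, and BTG and IER relatives, in clone 2 and clone 1; filled points passed the test, open points did not. Fosl2 lies farthest to the right at 3.07 in clone 2, and Myc and Spry4 lie left of 0 in both clones.

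The relatives of the BTG and IER members did not copy them. Of 7 tested, 1 rose and 2 fell in clone 2, 1 fell in clone 1 and 0 passed with both clones together, where 2 had an unadjusted p under 0.05. The median log2 fold change of these 7 was -0.01 in clone 2 and 0.01 in clone 1. The 2 that fell in clone 2, Ier5 and Ier5l, are also among the other early genes above, so these falls are counted in both lists. Ier5, a heat shock and growth response gene, had 5.07 and 7.12 CPM in clone 2, 10.1 and 19.2 CPM in clone 1, and 14.04 and 15.1 CPM in WT. It fell in clone 2, with a log2 fold change of -1.25 ± 0.26 (edgeR adjusted p = 0.00254). Ier5l had a log2 fold change of -0.97 ± 0.22 in clone 2 (edgeR adjusted p = 0.00543), lost without replicate 1 or 2 of WT (adjusted p = 0.0611 and 0.0715) and with DESeq2 (adjusted p = 0.156). Btg3, an antiproliferative relative of Btg2, had a log2 fold change of 0.40 ± 0.10 in clone 2 (edgeR adjusted p = 0.0144), lost without any 1 of the 4 libraries compared (adjusted p of 0.0692 to 0.161). Btg1 had a log2 fold change of -0.36 ± 0.11 in clone 1 (edgeR adjusted p = 0.0313), a call lost in 8 of the 13 settings.

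The 28 tested upstream regulators were kinases, serum response factor partners, and CREB factors and their partners that act on these genes, not all of them as activators. Of these 28, 5 rose and 0 fell in clone 2, and 4 rose and 1 fell in clone 1. With both clones together 0 passed, where 7 had an unadjusted p under 0.05. The median log2 fold change was 0.07 in clone 2, 0.04 in clone 1 and 0.07 with both together. Of all tested genes, the share called either way was 17.9% in clone 2, 21.9% in clone 1 and 6.36% with both together. Rps6ka5, which encodes the kinase MSK1 that phosphorylates CREB and histone H3, rose in clone 2 by a log2 fold change of 0.89 ± 0.19 (edgeR adjusted p = 0.00298, and 0.0504 without replicate 1 of clone 2). Mkl2, a serum response factor coactivator, rose in clone 1 by 0.64 ± 0.13 (edgeR adjusted p = 0.00248) under all settings. Elk3, an ETS partner of serum response factor, had a log2 fold change of 0.70 ± 0.20 in clone 1 (edgeR adjusted p = 0.0163), lost without replicate 1 of WT (adjusted p = 0.179). Rps6ka3, a kinase under ERK, had a log2 fold change of 0.50 ± 0.14 in clone 1 (edgeR adjusted p = 0.0184), and without replicate 2 of WT it was 0.33 (adjusted p = 0.238). Ep300 and Creb1 passed in clone 2, at log2 fold changes of 0.28 ± 0.08 and 0.49 ± 0.14 (edgeR adjusted p = 0.0213 and 0.0257), and both calls were lost without any 1 of the 4 libraries compared, at adjusted p of 0.100 to 0.243 for Ep300 and 0.0636 to 0.225 for Creb1. In clone 1 Creb1 had a log2 fold change of 0.45 ± 0.14 (edgeR adjusted p = 0.0337), which was 0.17 without replicate 1 of clone 1 (adjusted p = 0.394), and the call was lost in 5 of the 13 settings, without either WT library among them.

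Immediate early mRNAs are short-lived, and of 13 tested factors of mRNA decay, 0 rose and 3 fell in clone 2, 0 rose and 2 fell in clone 1, and 0 rose and 2 fell with both clones together. The median log2 fold change of the 13 was -0.02 in clone 2, -0.12 in clone 1 and -0.01 with both together. Zfp36, Zfp36l1 and Zfp36l2 are also among the other early genes above, so their calls are counted in both lists. Of all tested genes, the share called lower was 7.81% in clone 2, 9.53% in clone 1 and 2.11% with both together. Beside Zfp36l2, which belongs to this list too, Cnot8, a deadenylase subunit of CCR4-NOT, fell with both clones together by a log2 fold change of 0.44 ± 0.09 (edgeR adjusted p = 0.0195, and 0.252 and 0.162 without replicate 1 and 2 of WT). In clone 1 Cnot8 fell by 0.51 ± 0.09 (edgeR adjusted p = 5.17e-04), under all settings. In clone 2 Zfp36l2 had a log2 fold change of -0.50 ± 0.11 (edgeR adjusted p = 0.00445), lost without replicate 2 of WT (adjusted p = 0.0769) and without replicate 1 of clone 2 (adjusted p = 0.0648). Cnot8 had one of -0.36 ± 0.09 in clone 2 (edgeR adjusted p = 0.00786), lost without replicate 1 of WT (adjusted p = 0.111) and without replicate 1 or 2 of clone 2 (adjusted p = 0.128 and 0.0568). Zfp36l1 had one of -0.52 ± 0.16 in clone 2 (edgeR adjusted p = 0.0298), lost without any 1 of the 4 libraries compared (adjusted p of 0.0586 to 0.295).

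Among stress response lists, p53 targets held more falls than rises in both clones. Of 15 tested p53 targets, a list that holds no member, 1 rose and 6 fell in clone 2 and 1 rose and 5 fell in clone 1. With both clones together 0 rose and 1 fell. Their median log2 fold change was -0.29 in clone 2, -0.21 in clone 1 and -0.24 with both together. Of all tested genes, the share called lower was 7.81% in clone 2, 9.53% in clone 1 and 2.11% with both together. In clone 1 Cdkn1a, the p53-induced inhibitor of cyclin-dependent kinases, fell by a log2 fold change of 0.67 ± 0.09 (edgeR adjusted p = 5.97e-05), and so did Gdf15, a stress cytokine, by 1.14 ± 0.15 (edgeR adjusted p = 3.73e-05). In clone 2 Pmaip1, which encodes the proapoptotic protein Noxa, fell by 1.51 ± 0.19 (edgeR adjusted p = 2.99e-05). These 3 calls held in all alternatives. In clone 2 Cdkn1a had a log2 fold change of 0.27 ± 0.09 (edgeR adjusted p = 0.0443), a call lost with DESeq2 (adjusted p = 0.0731) and without any 1 of the 4 libraries compared (adjusted p of 0.0995 to 0.335). Of 12 tested heat shock genes, 0 passed in clone 2, where 2 had an unadjusted p under 0.05, 1 rose and 2 fell in clone 1, and 0 passed with both clones together, where 3 had an unadjusted p under 0.05. Their median log2 fold change in clone 1 was -0.02. In clone 1 the log2 fold changes were 1.69 ± 0.48 for Hspa4l (edgeR adjusted p = 0.0190), -0.29 ± 0.09 for Hsph1 (edgeR adjusted p = 0.0287) and -0.24 ± 0.08 for Dnaja1 (edgeR adjusted p = 0.0360). Hspa4l lost its call without replicate 2 of WT (adjusted p = 0.176), without replicate 2 of clone 1 (adjusted p = 0.0778) and with DESeq2 (adjusted p = 0.0523). Hsph1 lost it without replicate 1 of WT, where the log2 fold change was -0.19 (adjusted p = 0.309), and with no scaling factors (adjusted p = 0.134), and Dnaja1 lost it in 7 of the 13 settings.

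Markers of other cell types changed as well. Of 4 tested fibroblast and feeder markers, 1 rose and 0 fell in clone 2, 2 rose and 0 fell in clone 1, and 1 rose and 0 fell with both clones together. Their median log2 fold change was -0.20 in clone 2, with 1 of 4 positive, and 0.81 in clone 1, with 4 of 4 positive. Of 4 tested markers of differentiated lineages, 0 rose and 1 fell in clone 2, 2 rose and 0 fell in clone 1, and 0 passed with both clones together, where 1 had an unadjusted p under 0.05. In clone 1, 12.4% of all tested genes rose. Col1a2, a collagen of fibroblasts, had 11 and 18 counts in clone 2, 22 and 15 in clone 1, and 0 and 1 in WT, a pooled ratio of both clones over WT of 34.9 with a 95% counting interval of 6.05 to 1399. It passed the filter on low counts only through the libraries labelled knockout, so the test favoured a rise. It was the 1 fibroblast marker that rose in clone 2 and with both clones together. With both together its log2 fold change was 4.80, and 3.98 or 7.06 without replicate 1 or 2 of WT, where the call was lost. In clone 1 Eomes, a factor of early mesoderm and trophoblast, rose by a log2 fold change of 0.92 ± 0.17 (edgeR adjusted p = 8.14e-04), under all settings. Thy1, a surface protein of fibroblasts and other cells, rose in clone 1 by 0.94 ± 0.30 (edgeR adjusted p = 0.0311), lost without replicate 1 of WT (adjusted p = 0.235), without replicate 1 of clone 1 (adjusted p = 0.109) and with DESeq2 (adjusted p = 0.110). Gata4, an endoderm factor, rose in clone 1 by 1.43 ± 0.40 (edgeR adjusted p = 0.0159), lost without replicate 1 or 2 of WT (adjusted p = 0.127 and 0.0531) and with DESeq2 (adjusted p = 0.0541). T, the mesoderm factor brachyury, fell in clone 2, with a log2 fold change of -1.02 ± 0.23 (edgeR adjusted p = 0.00485), lost without replicate 2 of WT (adjusted p = 0.0783). Of 8 stem cell markers, 0 rose and 1 fell in clone 2, 0 rose and 3 fell in clone 1, and 0 passed with both clones together, where 2 had an unadjusted p under 0.05. Sox2 fell in clone 2 (log2 fold change -0.28 ± 0.08, edgeR adjusted p = 0.0293) and in clone 1 (log2 fold change -0.32 ± 0.08, edgeR adjusted p = 0.0115). These calls were lost in 4 of the 13 settings in clone 2 and in 3 in clone 1. In clone 1 Klf4, which is also an early response gene, had a log2 fold change of -0.41 ± 0.09 (edgeR adjusted p = 0.00499), which was -0.26 without replicate 1 of clone 1 and lost its call without replicate 2 of WT (adjusted p = 0.0690).

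The genes most like the members in profile were sought among 9859 other genes whose mean CPM was at least 5. Likeness was the root mean square difference of centred log2 CPM from the mean profile of the 6 members whose mean CPM was at least 1, over 6 libraries in 3 groups. The closest were Shank3 (0.0560 on the log2 scale), Slc27a3 (0.0593), Gucd1 (0.0772), Mt1 (0.0774) and P2rx4 (0.0842). That mean profile was highest in clone 1, at 0.14 and 0.51 on the centred log2 scale, and not all members shared it. Ier2 and Ier3, for example, correlated at -0.33 over the 6 libraries. Slc27a3 and Mt1, a metallothionein, had log2 fold changes of 0.47 and 0.37 in clone 1, which their selection by this profile favoured. These values are descriptions.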

How the data were processed

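RNA was measured in 6 libraries of E14 mouse embryonic stem cells, after depletion of ribosomal RNA per the labels' protocols. The authors deposited counts of reads per gene, whole numbers with no normalisation. HTSeq 0.9.1, HISAT2 2.1.0, the build mm10 and DESeq2 1.18.1 are listed, without roles, in the submitters' processing notes. For the counting, annotation and strand setting were not given in the sources used here. The 5 HTSeq summary entries stayed out of library sizes and tests, and ambiguous reads made up 6.96% to 9.10% of all reads.

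The counts were fitted with edgeR 4.0.16 in R 4.3.3 (TMM scaling, filterByExpr, quasi-likelihood F test, two-sided, Benjamini-Hochberg adjustment over 14946 genes at 0.05). The genotype fit took both clones as 1 group against WT, and the contrasts of single clones came from a fit of 3 groups. Since 4 libraries of only 2 clones enter the genotype fit as if independent, its p-values can be too low. Within a group the libraries were not copies of each other. Over genes with at least 10 counts, their chi-square per gene was 3.27 in clone 2, 8.79 in clone 1 and 3.57 in WT. The libraries of clone 1 thus differed most, while the fit of 3 groups shared 1 estimate of the spread. Intervals are exact 95% intervals and the floor is 3 counts, and both cover counting error only.

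Gene positions and lengths were read from GENCODE M21 (GRCm38, which is mm10), and promoters from RefSeq on GRCm38.p6. Log2 CPM profiles used a prior count of 2. The members and the gene lists were chosen with earlier results of these data known, so their counts are descriptions. The rule named all members and Bcat1, then from each list up to 4 genes that passed with both clones together and up to 3 that passed in each clone, by smallest p. Fewer are described where the list bears less on the members. Trib1 and the Dusp genes are given outside that rule. Alternatives were DESeq2 1.42.0, RLE or no scaling factors, other filters, a replicate block, the mean of both clone contrasts, a fit of the 4 libraries compared, the longest transcript as the length, and leaving out each library in turn. Where 1 library of a group was left, it was assumed to vary like the other groups. Figures were drawn with matplotlib 3.10.9.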

Additional observations from a re-analysis of the deposited data

Results flagged for a closer look

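The effect of the knockout label differed between the clones for 2 members, by the edgeR test of clone 2 over clone 1 itself. Ier3 had a log2 fold change of -1.04 between the clones (edgeR adjusted p = 3.42e-04), with both clone 2 libraries below both clone 1 libraries. Btg2 had a log2 fold change of -0.72 (edgeR adjusted p = 3.48e-04), again with no overlap. Each held in all 13 alternatives. No member had a library among the 4 labelled knockout that stood apart from the others by Dixon's criterion. The 4 values pool both clones, and a difference between clones widens their range. The criterion can then hardly be met and says little of single libraries.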

How the results depend on the processing

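The calls of Ier3 in clone 1, and of Ier3 and Btg2 between the clones, held in all 13 alternatives, and no called member reversed. With both clones together 0 members were called in all 13. The genes called there numbered 1752 with no filter on low counts, 3226 with the mean of both clone contrasts and 79 to 948 when a library was left out, against 951. In clone 2 the genes called were 4065 when only the 4 libraries at hand were fitted and 1165 to 4191 when a library was left out, against 2674, and the members called were 0 with DESeq2, 2 in the 4-library fit and 0 to 2 when a library was left out, against 1. In clone 1 the genes called were 1576 to 4310 when a library was left out, against 3280, and the members called were 1 with DESeq2 and 1 to 4 when a library was left out, against 3. Clone 2 over clone 1 the values were 974 to 3155 genes and 2 to 4 members when a library was left out, against 2141 and 2. The cause was not tested.

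The replicate numbers are not stated to pair libraries, and the deviations of same-numbered libraries correlated at 0.13 between the clones, -0.01 between clone 2 and WT and 0.05 between clone 1 and WT. With the replicate number as a block, 3685 genes and 2 members were called in clone 2, 4410 genes and 4 members in clone 1, 646 genes and 0 members with both clones together, and 3007 genes and 2 members between the clones. Under the block Ier2 was called lower in clone 2 (adjusted p = 0.0288) and in clone 1 (adjusted p = 0.00515), and the calls with both clones together were lost for Fosl2 (adjusted p = 0.0890) and Arc (adjusted p = 0.0691).

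Values that changed sign were all uncalled in the main fit, though Junb and Ier2 passed in single settings given above. With both clones together Fos was -0.00737 as the mean of both contrasts, and Bcat1 was -0.00114 with no filter. Over leaving out each library in turn, with both clones together, Fos ranged from -0.157 to 0.211, Junb from -0.0386 to 0.257, Btg2 from -0.0793 to 0.177 and Bcat1 from -0.0351 to 0.0281. In clone 2 Junb ranged from -0.199 to 0.239 and Ier3 from -0.338 to 0.157, and in clone 1 Junb ranged from -0.219 to 0.515. Clone 2 over clone 1, Ier2 was -0.0195 with no scaling factors and ranged from -0.155 to 0.306, and Junb ranged from -0.469 to 0.264. Depth limits Fosb, Egr1 and Egr2, which had at most 11 counts in a library.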
